A study of Mus musculus with 7 samples.

Results

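The 8 genes described here, Esrp1, Esrp2, Mbnl1, Mbnl2, Rbfox2, Ptbp1, Ptbp2 and Celf1, encode RNA-binding proteins that set cell-type splicing programs. They were chosen by name, and each was matched by symbol to its Ensembl identifier among the 29267 genes of the tables. The question was how their RNA levels differed between Oct4GFP+ and Oct4GFP- cells of 2 reprogramming media, and between pluripotent states. RNA was measured in 7 mouse libraries, 1 for each group. The Oct4GFP+ and Oct4GFP- cells of mES medium (mES-Oct4GFP+, mES-Oct4GFP-) and of 5C medium (5C-Oct4GFP+, 5C-Oct4GFP-) all began as OG2 mouse embryonic fibroblasts (MEFs), which carry a green fluorescent reporter driven by the Oct4 promoter, and all received retroviral Oct4, Sox2, Klf4 and c-Myc. They were cultured in conventional mES medium or in the chemically defined 5C medium, sorted by FACS on the reporter, and are labelled with 0 passages. The 5C-Oct4GFP+ (naive) and 5C-Oct4GFP+ (primed) cells were 5C-Oct4GFP+ cells moved to naive medium, with LIF and inhibitors of MEK and GSK3, or to primed medium. They are labelled with 20 passages, while the study also describes a culture of a few days for cells of these names. The R1 ESCs-primed cells, also labelled with 20 passages, came from the R1 embryonic stem cell line, are not labelled as carrying the reporter or the retroviral factors, and were taken to the primed state on MEF feeder cells. They were then maintained on serum-coated plates, with CHIR99021 and IWR-1 replacing the bFGF and activin A of primed medium. Unlike the other groups they did not start from fibroblasts. The reporter is driven by the Oct4 promoter together with its distal enhancer, and absence of fluorescence need not mean an inactive promoter. It separates cells by the activity of these elements only, so an Oct4GFP- library can hold several cell types. The study describes that the cells moved to primed medium lost the fluorescence, so their label gives their origin.

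Splicing regulators of this kind bind short motifs in pre-mRNA and raise or lower the use of nearby exons, often with opposite outcomes upstream and downstream of the exon. ESRP proteins maintain epithelial exon choices, MBNL and RBFOX proteins promote exon choices of differentiated and mesenchymal cells, PTBP1 holds back neuronal and muscle exons in dividing cells, and CELF1 often acts against MBNL proteins on shared targets. MBNL proteins are also known to oppose the exon choices of embryonic stem cells, whereas loss of ESRP1 is a textbook feature of the epithelial-mesenchymal transition.

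Each library held between 6108252 and 11496615 estimated read counts. Levels are given as TPM, a measure of transcript abundance that is scaled for gene length and has the same sum in every library, so that levels of different genes can be set side by side on this scale. There were no replicates, so no difference below has a test between groups. Ratios of TPM carry exact Clopper-Pearson 95% intervals from the read counts, which cover counting error only and not the spread between cultures. A gene was counted as at least 2-fold apart when its log2(TPM + 1) differed by at least 1 between 2 libraries and its TPM was at least 1 in either. This scale understates differences of low genes. The sum of 10 pluripotency markers ranged from 2726 to 10277 TPM, although its parts due to Oct4 (Pou5f1) and Sox2 may include the retroviral transcripts. Pou5f1 and Sox2 had 3640 and 498 TPM in mES-Oct4GFP- cells, and 1534 and 680 TPM in 5C-Oct4GFP- cells. Dppa5a and Zfp42, markers of the naive state and those of widest range in this list, had 4714 and 219 TPM in 5C-Oct4GFP+ cells against 0.87 and 0 TPM in 5C-Oct4GFP+ (primed) cells. Nanog was at 17.1 TPM in mES-Oct4GFP- cells and at 118 TPM or more in the other libraries, 5C-Oct4GFP- cells included. All 8 epithelial markers were detected at 5 TPM or more in mES-Oct4GFP-, 5C-Oct4GFP+, 5C-Oct4GFP- and 5C-Oct4GFP+ (primed) cells. The labelled starting type of these cells, fibroblast, had markers near 0 in the mES-Oct4GFP+, 5C-Oct4GFP+ and 5C-Oct4GFP+ (naive) libraries, where the 10 fibroblast markers summed to 16.1, 11.5 and 10.0 TPM.

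Mbnl1 and Mbnl2 both had their highest levels in the Oct4GFP- libraries and their lowest in 5C-Oct4GFP+ (naive) cells, and the bases before their start sites are shown so that they can be set beside their levels. The stretches come from the RefSeq promoter table on GRCm38.p6, which held 5 of the 8 genes (Mbnl1, Mbnl2, Ptbp1, Ptbp2 and Celf1). Each has 250 bases before a start site, on the plus strand, at chr3:60472580-60472829 and chr3:60500929-60501178 for the start sites of Mbnl1 and at chr14:120275419-120275668 for Mbnl2. Capitals mark GGGCGG, the GC box, or its reverse complement CCGCCC, and TATAAA, the TATA box, or its reverse complement TTTATA.
Mbnl1 start site 1: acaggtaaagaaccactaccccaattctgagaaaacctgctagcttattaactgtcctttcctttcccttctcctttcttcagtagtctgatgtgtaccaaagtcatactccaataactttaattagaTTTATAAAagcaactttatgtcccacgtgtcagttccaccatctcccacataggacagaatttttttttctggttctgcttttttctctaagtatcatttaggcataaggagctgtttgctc
Mbnl1 start site 2: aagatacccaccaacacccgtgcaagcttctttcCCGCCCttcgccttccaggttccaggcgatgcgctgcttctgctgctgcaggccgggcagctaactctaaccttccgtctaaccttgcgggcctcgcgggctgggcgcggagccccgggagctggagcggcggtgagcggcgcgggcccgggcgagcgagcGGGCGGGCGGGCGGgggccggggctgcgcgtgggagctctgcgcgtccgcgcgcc
Mbnl2: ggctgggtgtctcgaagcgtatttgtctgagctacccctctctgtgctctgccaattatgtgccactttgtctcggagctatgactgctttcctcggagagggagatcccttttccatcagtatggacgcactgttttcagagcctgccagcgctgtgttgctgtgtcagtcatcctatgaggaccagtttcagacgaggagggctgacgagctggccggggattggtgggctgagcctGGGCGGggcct

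Letters were matched anywhere in a stretch, whatever the distance to the start site. The upstream start site of Mbnl1 had 38% G or C and no GC box. It had 2 overlapping TATA box matches on opposite strands, near the middle of the 250 bases. The downstream start site of Mbnl1 had 73.6% G or C, with 4 GC boxes and no TATA box. Mbnl2 had 57.2% G or C and 1 GC box. Among all 32851 stretches of the table the median was 52.4% G or C, 32.7% held a GC box and 12.4% held a TATA box on either strand. The E-box CACCTG (reverse complement CAGGTG), the kind bound by ZEB and SNAI repressors, had a match in 17.2% of all stretches and in none of the 6 stretches of these 5 genes, which says only that these letters are not in these windows. Gene tables do not tell which start site was used.

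Esrp1 (ENSMUSG00000040728, chr4:11331933-11386783, minus strand, GRCm38), the epithelial splicing regulator, was close to absent in 2 of the 7 libraries and well expressed in the others. TPM was 88.5 in 5C-Oct4GFP+ cells, 86.0 in 5C-Oct4GFP+ (primed) cells, 58.2 in R1 ESCs-primed, 49.2 in mES-Oct4GFP- cells and 27.2 in 5C-Oct4GFP- cells. In mES-Oct4GFP+ cells it had 0.82 TPM from 7 reads, and in 5C-Oct4GFP+ (naive) cells 0.92 TPM from 16 reads. Thus the Oct4GFP+ cells of mES medium and the cells converted in naive medium were low, while the Oct4GFP+ cells of 5C medium and both primed populations were high. The level in 5C-Oct4GFP+ cells was 108 times that in mES-Oct4GFP+ cells (95% interval 52.3 to 269). The range over the libraries was 5.62 on the log2(TPM + 1) scale, and 2.17% of the 17733 genes that reached 1 TPM in any library had a range as large, against a median range of 1.55. In the order of levels, 5C-Oct4GFP+ and 5C-Oct4GFP+ (primed) were not apart beyond counting error, nor were 5C-Oct4GFP+ (naive) and mES-Oct4GFP+. In these bulk libraries, fewer cells that express a gene and less of its RNA per cell cannot be told apart.

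Esrp2 (ENSMUSG00000084128, chr8:106130319-106136974, minus strand), the paralogue that binds similar motifs and shares many epithelial targets, did not follow Esrp1. TPM was 23.5 in mES-Oct4GFP- cells, 17.9 in 5C-Oct4GFP+ (naive) cells, 16.1 in 5C-Oct4GFP+ cells, 14.1 in mES-Oct4GFP+ cells, 13.0 in 5C-Oct4GFP- cells, 11.2 in 5C-Oct4GFP+ (primed) cells and 5.04 in R1 ESCs-primed. The highest and the lowest value were apart from their neighbours. Among the 5 between them no value was apart from the next beyond counting error, although the first of them, the naive cells, was 1.59 times the last, the primed cells (1.29 to 1.97). The library highest in Esrp1, that of 5C-Oct4GFP+ cells, was therefore in the middle of the Esrp2 order, and Esrp2 was present at 14.1 and 17.9 TPM in the libraries nearly without Esrp1. The highest Esrp2 level was 4.66 times the lowest (3.50 to 6.29).

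**Figure D1:**
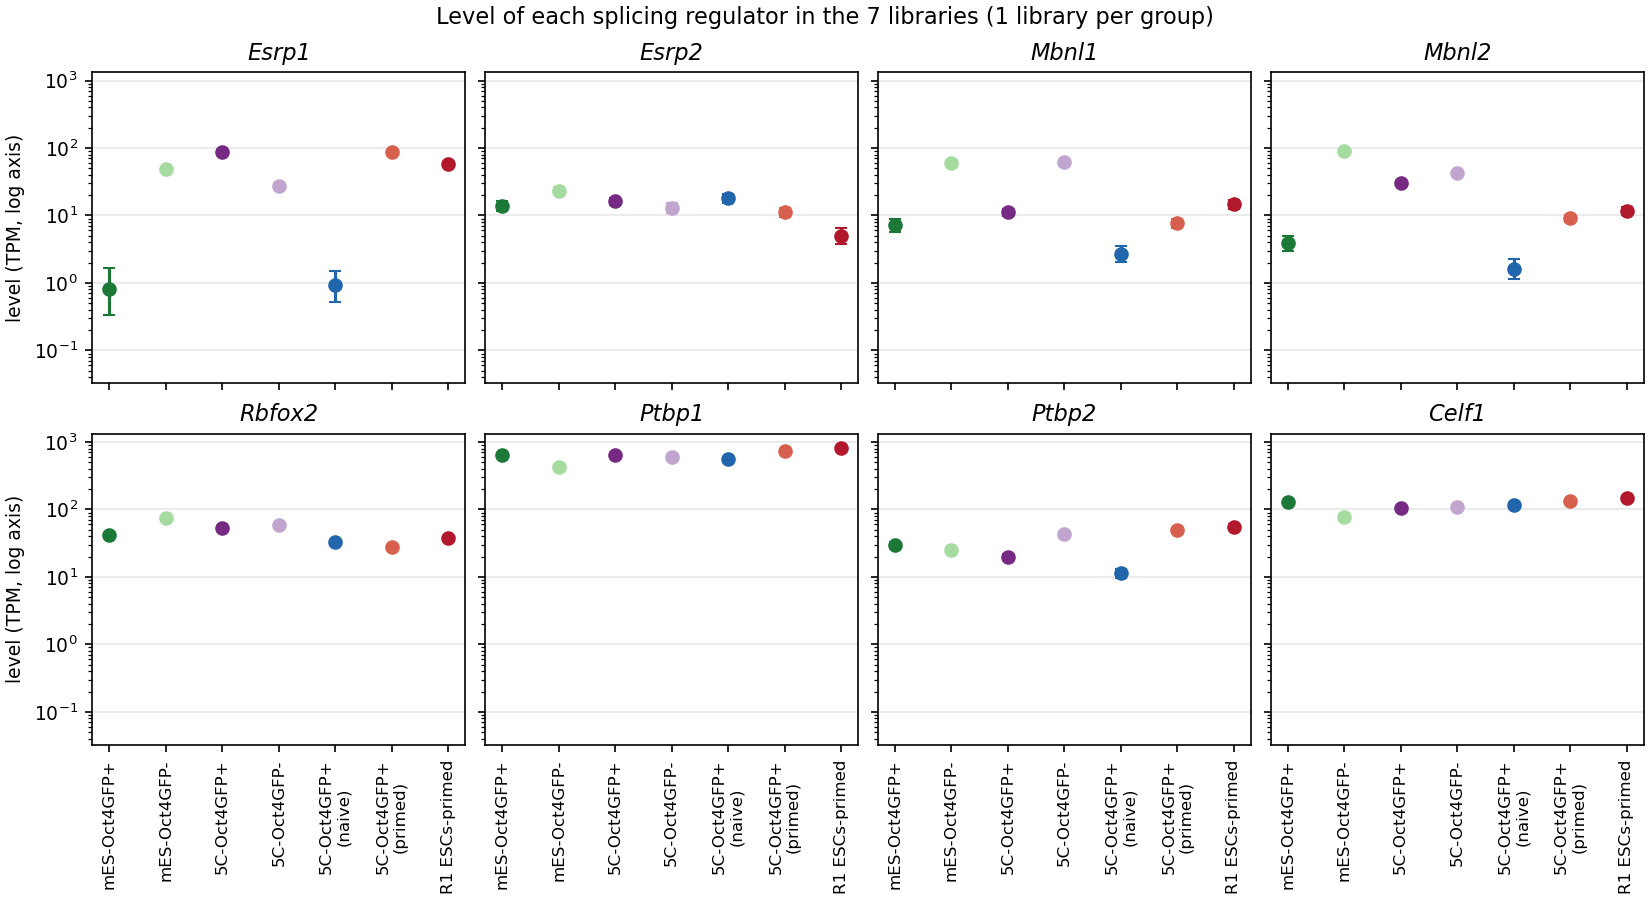
Level of the 8 splicing regulators in TPM (log axis) in each of the 7 libraries, 1 point per library, with exact 95% intervals for counting error where they are wider than the point. Esrp1, Mbnl1 and Mbnl2 span the widest ranges, with Esrp1 from 0.82 to 88.5 TPM, while Ptbp1 stays between 426 and 802 TPM and Celf1 between 76.0 and 150.2 TPM.

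Mbnl1 (ENSMUSG00000027763, chr3:60472830-60629750, plus strand), a muscleblind protein that promotes differentiated exon choices, was high in the Oct4GFP- cells of both media. Its levels there, 61.6 TPM in 5C and 59.8 TPM in mES medium, were not apart beyond counting error. The other libraries were lower, with 14.6 TPM in R1 ESCs-primed, 11.2 TPM in 5C-Oct4GFP+, 7.64 TPM in 5C-Oct4GFP+ (primed), 7.12 TPM in mES-Oct4GFP+ and 2.67 TPM in 5C-Oct4GFP+ (naive) cells. Of these, 5C-Oct4GFP+ (primed) and mES-Oct4GFP+ cells were not apart beyond counting error. From the lowest to the highest library the level differed 23.1 times (17.6 to 30.8).

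Mbnl2 (ENSMUSG00000022139, chr14:120275669-120431697, plus strand), its closest paralogue, was also highest in Oct4GFP- cells but differed between them. It reached 90.5 TPM in mES-Oct4GFP- and 42.2 TPM in 5C-Oct4GFP- cells, followed by 30.0 TPM in 5C-Oct4GFP+ cells. Levels were 11.7 TPM in R1 ESCs-primed, 9.07 TPM in 5C-Oct4GFP+ (primed), 3.89 TPM in mES-Oct4GFP+ and 1.63 TPM in 5C-Oct4GFP+ (naive) cells, the last from 34 reads. All neighbours in this order were apart beyond counting error. The range was 55.5-fold (39.6 to 80.4), and 3.24% of genes had a range as large on the log2(TPM + 1) scale, against 7.35% for Mbnl1. The Oct4GFP+ cells of 5C medium held 7.72 times as much Mbnl2 as those of mES medium (5.91 to 10.3), and 1.57 times as much Mbnl1 (1.23 to 2.02).

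Fibroblast markers, like the MBNL genes, were highest in the Oct4GFP- libraries, but the order of the other libraries was not the same. The 10 markers summed to 620 TPM in mES-Oct4GFP- and 307 TPM in 5C-Oct4GFP- cells, with 9 and 7 of them at 5 TPM or more, to 218 TPM in R1 ESCs-primed, to 77.0 TPM in 5C-Oct4GFP+ (primed) and to between 10.0 and 16.1 TPM in the other libraries. Prrx1 and Col1a1, the markers with the widest range, were at 87.9 and 159.6 TPM in mES-Oct4GFP- cells, while Twist2 was at 0 in mES-Oct4GFP+ and 5C-Oct4GFP+ (naive) cells. The Mbnl2 level of 30.0 TPM in 5C-Oct4GFP+ cells came with a fibroblast marker sum of 11.5 TPM, 1 of the 10 markers being at 5 TPM or more. The part of fibroblasts in the MBNL levels was not tested in any library.

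**Figure D2:**
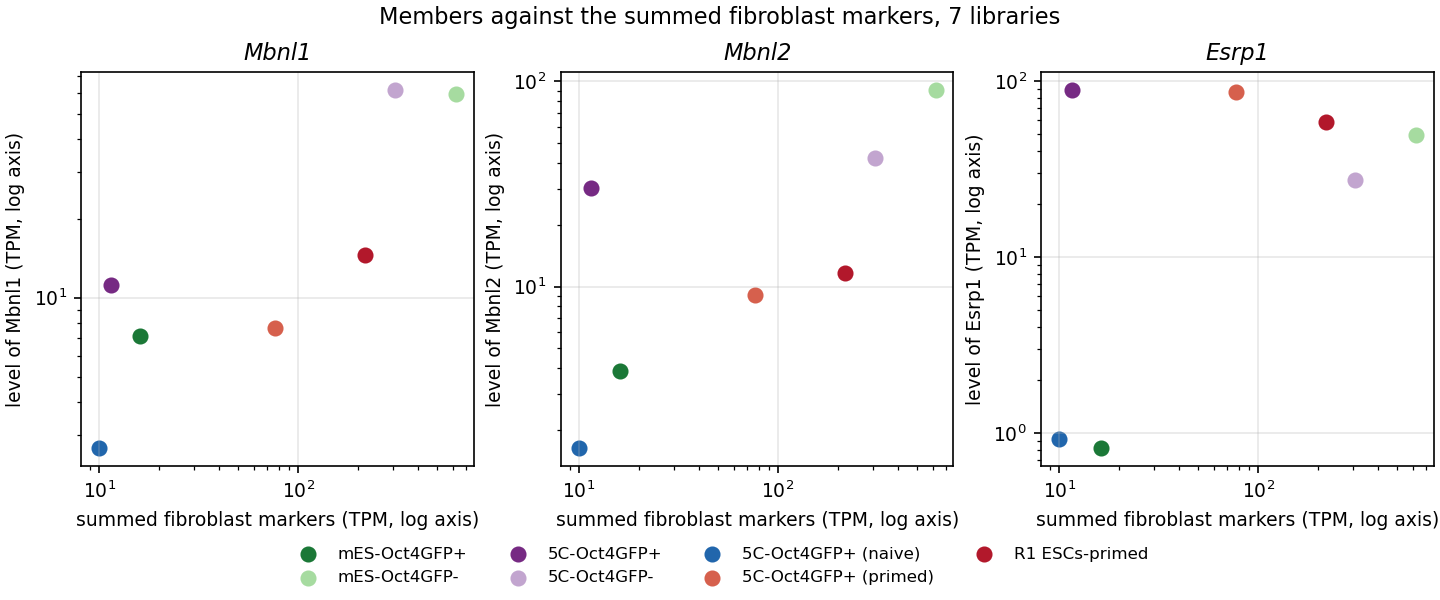
Levels of Mbnl1, Mbnl2 and Esrp1 (vertical, TPM, log axis) against the summed TPM of 10 fibroblast markers (horizontal, log axis), with 1 point for each of the 7 libraries. The Oct4GFP- libraries have the highest marker sums, 620 and 307 TPM, and the highest Mbnl1 and Mbnl2 levels, whereas 5C-Oct4GFP+ cells combine a sum of 11.5 TPM with 30.0 TPM of Mbnl2 and 88.5 TPM of Esrp1.

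Rbfox2 (ENSMUSG00000033565, chr15:77078990-77307004, minus strand), which binds a well-known motif beside mesenchymal and stem-cell exons, varied less. TPM was 74.9 in mES-Oct4GFP- cells, 58.3 in 5C-Oct4GFP- cells, 52.3 in 5C-Oct4GFP+ cells, 41.7 in mES-Oct4GFP+ cells, 37.2 in R1 ESCs-primed, 33.1 in 5C-Oct4GFP+ (naive) cells and 27.6 in 5C-Oct4GFP+ (primed) cells. All neighbours were apart beyond counting error, but the whole range was 2.71-fold (2.53 to 2.91), and 55.8% of genes had a range as large. As with Mbnl1 and Mbnl2, the Oct4GFP- libraries were the highest, but 5C-Oct4GFP- was only 1.11 times 5C-Oct4GFP+ (1.04 to 1.19). Median-ratio rescaling of the libraries left a difference of 0.00055 between these on the log2(TPM + 1) scale, in the other direction.

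Ptbp1 (ENSMUSG00000006498, chr10:79854427-79864771, plus strand), the polypyrimidine tract-binding protein of dividing cells, was the most abundant of the 8 genes in every library. TPM was 802 in R1 ESCs-primed, 732 in 5C-Oct4GFP+ (primed) cells, 647 in 5C-Oct4GFP+ cells, 636 in mES-Oct4GFP+ cells, 591 in 5C-Oct4GFP- cells, 566 in 5C-Oct4GFP+ (naive) cells and 426 in mES-Oct4GFP- cells. Between 0.461% and 1.06% of the genes had a higher level in the same library. The 5C-Oct4GFP+ and mES-Oct4GFP+ levels were not apart beyond counting error, and the range was 1.88-fold (1.81 to 1.96). On the log2(TPM + 1) scale 81.5% of genes had a range as large.

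Ptbp2 (ENSMUSG00000028134, chr3:119718742-119784466, minus strand), the paralogue that takes over from PTBP1 in developing neurons, was at far lower TPM and varied more. TPM was 55.8 in R1 ESCs-primed, 49.1 in 5C-Oct4GFP+ (primed) cells, 42.7 in 5C-Oct4GFP- cells, 29.7 in mES-Oct4GFP+ cells, 25.1 in mES-Oct4GFP- cells, 19.5 in 5C-Oct4GFP+ cells and 11.3 in 5C-Oct4GFP+ (naive) cells. Both primed libraries were the highest and the naive library the lowest, with every neighbour apart beyond counting error. The range was 4.95-fold (4.19 to 5.88). Here the order of the 5C libraries was unlike that of Esrp1, since Ptbp2 was low and Esrp1 high in 5C-Oct4GFP+ cells.

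Celf1 (ENSMUSG00000005506, chr2:90940382-91019497, plus strand), which binds GU-rich RNA and also acts in mRNA decay, stayed within 1.98-fold (1.86 to 2.10). TPM was 150.2 in R1 ESCs-primed, 133 in 5C-Oct4GFP+ (primed) cells, 129.6 in mES-Oct4GFP+ cells, 115 in 5C-Oct4GFP+ (naive) cells, 109 in 5C-Oct4GFP- cells, 105 in 5C-Oct4GFP+ cells and 76.0 in mES-Oct4GFP- cells. Of its neighbours, 5C-Oct4GFP+ (primed) and mES-Oct4GFP+ were not apart beyond counting error, nor were 5C-Oct4GFP+ (naive) and 5C-Oct4GFP-, or 5C-Oct4GFP- and 5C-Oct4GFP+. The naive cells were above the 5C-Oct4GFP+ cells (1.09 times, 1.04 to 1.15). Ptbp1 and Celf1 had their lowest level in the mES-Oct4GFP- library, in which Mbnl2, Rbfox2 and Esrp2 were at their highest.

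Within mES medium, 3 of the 8 genes were at least 2-fold lower in Oct4GFP+ than in Oct4GFP- cells and none was 2-fold higher, where 28.8% of all genes tested were lower and 17.9% higher (46.7% either way). Esrp1 was 60.0 times higher in the Oct4GFP- cells (29.0 to 149.7), Mbnl2 23.3 times (17.9 to 30.7) and Mbnl1 8.40 times (6.77 to 10.5). Rbfox2 was 1.79 times higher there (1.66 to 1.94) and Esrp2 1.67 times (1.36 to 2.06). Ptbp1, Celf1 and Ptbp2 were higher in the Oct4GFP+ cells, by 1.49 (1.43 to 1.56), 1.71 (1.60 to 1.82) and 1.18 times (1.02 to 1.38). The 8 epithelial markers summed to 1920 TPM in mES-Oct4GFP- and 582 TPM in mES-Oct4GFP+ cells, with 5 of the 8 at least 2-fold lower and 1 higher in the Oct4GFP+ cells. Krt8 and Krt18, those of widest range, had 748 and 454 TPM in mES-Oct4GFP- and 3.82 and 1.36 TPM in mES-Oct4GFP+ cells. Cdh1, which encodes E-cadherin, ran the other way, at 124 and 295 TPM, and Epcam had 218 and 208 TPM. The part of epithelial cells in the Esrp1 difference was not tested.

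Within 5C medium the same sort gave another picture, with 1 of the 8 genes at least 2-fold higher in Oct4GFP+ cells and 2 lower, against 8.45% and 22.6% of all genes (31.0% either way). Esrp1 was 3.26 times higher in the Oct4GFP+ cells (2.91 to 3.65), opposite in direction to mES medium. Krt8 and Krt18 did not follow it here, with 24.6 and 48.2 TPM in 5C-Oct4GFP+ against 221 and 91.8 TPM in 5C-Oct4GFP- cells, while 2 of the 8 epithelial markers were at least 2-fold higher and 1 lower in the Oct4GFP+ cells. Mbnl1 was 5.52 times higher in the Oct4GFP- cells (4.78 to 6.39) and Ptbp2 2.19 times (1.92 to 2.50). Mbnl2 was 1.40 times higher in the Oct4GFP- cells (1.27 to 1.55). For Celf1 a difference was not detectable at this depth, the ratio of Oct4GFP+ to Oct4GFP- being 0.965 (0.913 to 1.02). The median of all genes was -0.25 in this comparison on the log2(TPM + 1) scale and -0.11 after median-ratio rescaling of the libraries. Rbfox2, at -0.15, turned in direction under that rescaling, to 0.00055. Celf1, whose interval included 1, turned as well, to 0.10, and to 0.044 with FPKM. Ptbp2 no longer reached the 2-fold limit under the rescaling (-0.94 in place of -1.09) or with FPKM (-0.97), which left 2 of the 8 genes apart.

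Between the media, Oct4GFP+ cells of 5C medium had 2 genes at least 2-fold higher than those of mES medium and none lower, against 13.7% and 13.5% of all genes (27.2% either way). These were Esrp1 and Mbnl2, by 5.62 and 2.67 on the log2(TPM + 1) scale. Ptbp2 was 1.52 times higher in mES-Oct4GFP+ cells (1.31 to 1.77) and Celf1 1.23 times (1.16 to 1.30). For Esrp2 and Ptbp1 no difference was detectable, with ratios of 5C to mES of 1.15 (0.929 to 1.43) and 1.02 (0.983 to 1.05). In Oct4GFP- cells 1 of the 8 genes was at least 2-fold apart, namely Mbnl2, 2.14 times higher in mES medium (1.97 to 2.33), where 10.1% of all genes were lower in 5C medium and 9.68% were higher (19.8% either way). Esrp1 and Esrp2 were both 1.81 times higher in mES-Oct4GFP- than in 5C-Oct4GFP- cells (1.60 to 2.05 and 1.49 to 2.22). Ptbp2 was 1.70 times (1.49 to 1.95), Celf1 1.44 times (1.35 to 1.53) and Ptbp1 1.39 times (1.34 to 1.45) higher in 5C-Oct4GFP- cells. The mES-Oct4GFP+ and mES-Oct4GFP- libraries each enter 2 of these 4 comparisons, as do those of 5C medium, so the comparisons share their libraries.

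Conversion to naive medium went with lower levels of 3 genes and higher levels of none at the 2-fold limit, against 17.5% and 10.0% of all genes (27.5% either way). The converted cells are labelled with 20 passages and the 5C-Oct4GFP+ and mES-Oct4GFP+ cells with 0. In each comparison between them, here and below, medium and passages cannot be told apart. The 5C-Oct4GFP+ cells had 96.2 times as much Esrp1 as the naive cells (59.1 to 169), 18.4 times as much Mbnl2 (13.1 to 26.8) and 4.18 times as much Mbnl1 (3.10 to 5.71). Ptbp2 was 1.73 times (1.44 to 2.08) and Rbfox2 1.58 times (1.46 to 1.70) higher in the 5C-Oct4GFP+ cells. Esrp2 was not detectably different (ratio of naive to 5C-Oct4GFP+ 1.11, 0.917 to 1.34).

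Conversion to primed medium, compared with the same 5C-Oct4GFP+ library, left 1 gene at least 2-fold higher and 1 lower, against 13.7% and 16.1% of all genes (29.7% either way). Ptbp2 was 2.52 times higher in the primed cells (2.24 to 2.85) and Mbnl2 3.31 times higher in the 5C-Oct4GFP+ cells (2.87 to 3.83). For Esrp1 no difference was detectable (0.971, 0.909 to 1.04). Rbfox2 was 1.89 times (1.76 to 2.04), Mbnl1 1.46 times (1.19 to 1.79) and Esrp2 1.44 times (1.17 to 1.76) higher in the 5C-Oct4GFP+ cells. Set against the naive cells, the primed cells had 4 genes at least 2-fold higher and none lower, where 22.2% and 16.7% of all genes were (38.9% either way). They were Esrp1 at 93.5 times (57.4 to 164), Mbnl2 at 5.56 times (3.88 to 8.21), Ptbp2 at 4.36 times (3.71 to 5.15) and Mbnl1 at 2.86 times (2.10 to 3.96).

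Against mES-Oct4GFP+ cells, the cells converted in naive medium had 2 genes at least 2-fold lower and none higher of the 7 that reached 1 TPM in either library, where 6.27% of all genes were lower and 2.49% higher (8.77% either way). Esrp1 did not reach that level in either, and its ratio of 1.12 (0.437 to 3.22) left a difference undetectable. Mbnl1 was 2.67 times (1.89 to 3.80) and Ptbp2 2.63 times (2.19 to 3.18) higher in mES-Oct4GFP+ cells. Mbnl2 was 2.39 times higher there as well (1.54 to 3.76), but 0.89 on the log2(TPM + 1) scale, where its low level keeps it under the limit. With a pseudocount of 0.1 it passed the limit, at -1.21, and with FPKM Mbnl1 missed it, at -0.95 in place of -1.15.

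The primed cells of 5C origin and R1 ESCs-primed had 1 gene at least 2-fold apart, Esrp2, which was 2.23 times higher in the cells of 5C origin (1.64 to 3.07), against 2.30% of all genes higher and 5.09% lower (7.39% either way). Mbnl1 was 1.91 times higher in R1 ESCs-primed (1.52 to 2.39), and Esrp1 1.48 times higher in the cells of 5C origin (1.36 to 1.61). The fibroblast marker sum was 77.0 and 218 TPM in these libraries. CPM, counts scaled to the library total with no length, gave smaller differences for Esrp2 and Mbnl1, 0.76 and -0.55 in place of 1.02 and -0.85 on the log2 scale, because the gene length used for TPM differed between the libraries.

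**Figure D3:**
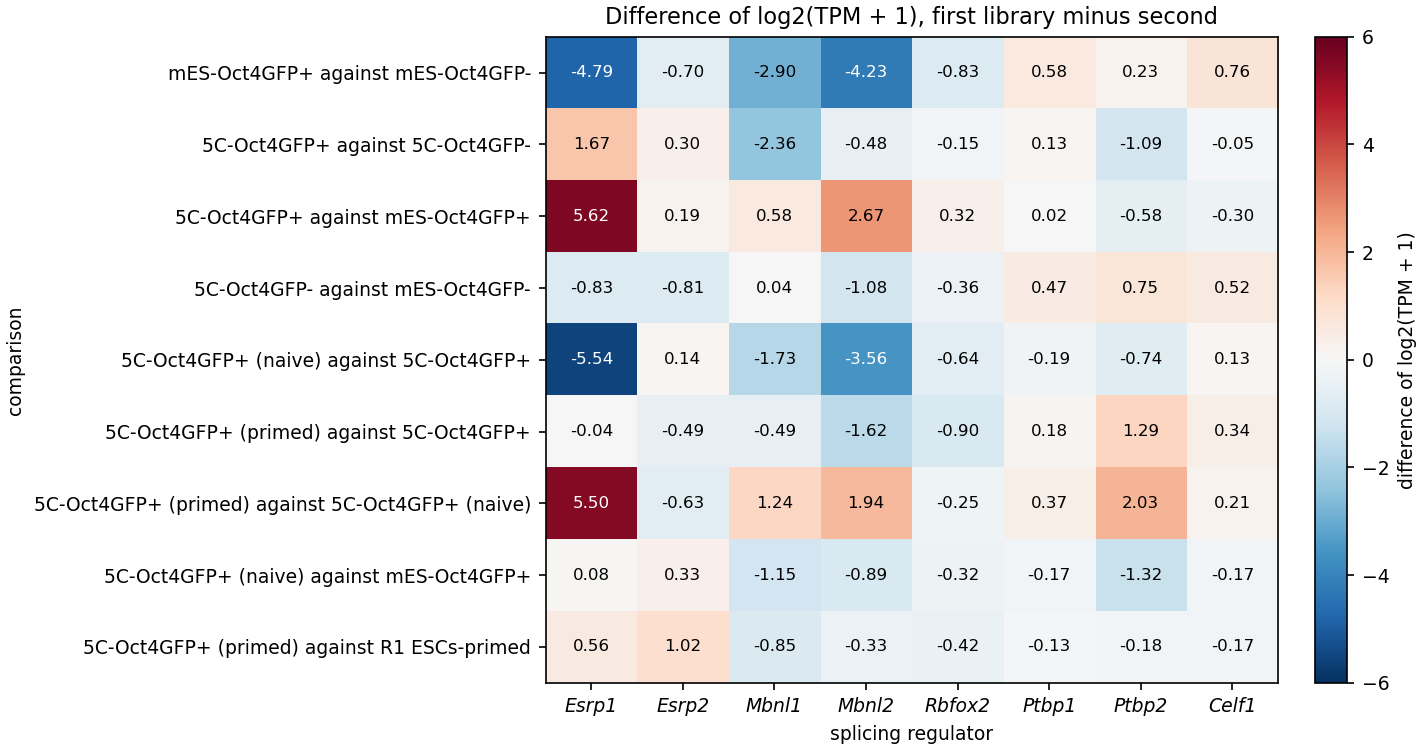
Difference of log2(TPM + 1) for the 8 splicing regulators (columns) in 9 comparisons of 2 libraries (rows), first library minus second, with the value printed in each cell and coloured from blue (lower in the first) to red (higher). Esrp1 runs from -5.54 to 5.62 and Mbnl2 from -4.23 to 2.67, while Ptbp1 stays between -0.19 and 0.58.

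The balance of paralogues within a library, which does not depend on how libraries are scaled to each other, differed most for the ESRP genes. Esrp1 was 5.49 times Esrp2 in TPM in 5C-Oct4GFP+ cells (4.81 to 6.28), 7.65 times in 5C-Oct4GFP+ (primed) cells (6.51 to 9.05), 11.5 times in R1 ESCs-primed (8.82 to 15.4) and 2.10 times in both Oct4GFP- libraries. In mES-Oct4GFP+ and 5C-Oct4GFP+ (naive) cells Esrp2 was instead 17.1 and 19.4 times Esrp1. The summed TPM of the pair was lowest in mES-Oct4GFP+ cells, at 14.9, and highest in 5C-Oct4GFP+ cells, at 104.7.

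Mbnl1 exceeded Mbnl2 in TPM in mES-Oct4GFP+ (1.83 times, 1.30 to 2.59), 5C-Oct4GFP+ (naive) (1.64, 1.05 to 2.59), 5C-Oct4GFP- (1.46, 1.33 to 1.60) and R1 ESCs-primed cells (1.25, 1.01 to 1.55). Mbnl2 was the higher in 5C-Oct4GFP+ cells, at 2.69 times Mbnl1, and in mES-Oct4GFP- cells, at 1.51 times. In 5C-Oct4GFP+ (primed) cells the ratio of 0.842 had an interval that includes 1 (0.689 to 1.03). Ptbp1 was 50.3 times Ptbp2 in 5C-Oct4GFP+ (naive) cells (43.3 to 58.8), 33.2 times in 5C-Oct4GFP+ cells (29.9 to 37.0), and between 13.8 and 21.4 times in the other libraries. Of the summed TPM of the 8 genes, Ptbp1 supplied between 51.6% and 75.6%.

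**Figure D4:**
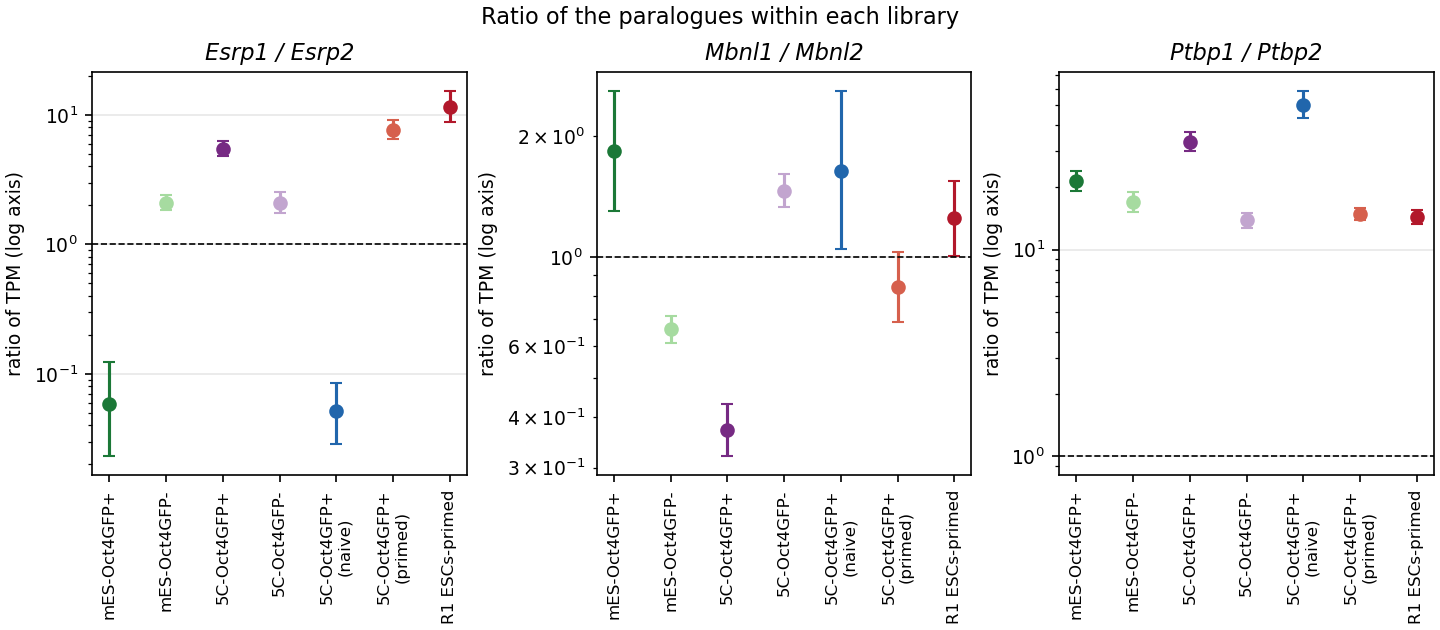
Ratio of TPM (log axis) of Esrp1 to Esrp2, Mbnl1 to Mbnl2 and Ptbp1 to Ptbp2 in each of the 7 libraries, with exact 95% intervals for counting error, and a dashed line at a ratio of 1. The ESRP ratio lies at 0.058 and 0.051 in mES-Oct4GFP+ and 5C-Oct4GFP+ (naive) cells and between 2.10 and 11.5 elsewhere.

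Transcription factors of the epithelial or mesenchymal state were set beside the ESRP and MBNL genes, since ZEB1 and ZEB2 are known repressors of Esrp1 and GRHL2 is a known activator of epithelial genes. Zeb2 was at 0 in 5C-Oct4GFP+ (naive), 0.35 TPM in mES-Oct4GFP+ and 0.62 TPM in 5C-Oct4GFP+ cells. It had 3.84 TPM in 5C-Oct4GFP+ (primed) cells, whose Esrp1 level was not apart from the highest, and 7.68 TPM in R1 ESCs-primed. Zeb1 had 9.53 TPM in mES-Oct4GFP+ and 5.58 TPM in 5C-Oct4GFP+ (naive) cells, where Esrp1 was nearly absent, against 3.14 TPM in the Oct4GFP+ cells of 5C medium and 3.65 TPM in the primed cells derived from them, where it was highest, and 12.9 TPM in R1 ESCs-primed. In mES-Oct4GFP- and 5C-Oct4GFP- cells Zeb2 had 11.3 and 19.5 TPM and Zeb1 20.8 and 21.7 TPM, beside 49.2 and 27.2 TPM of Esrp1. Grhl2 had 43.7 TPM in 5C-Oct4GFP+ cells, where Esrp1 was highest. It had 11.9 TPM in 5C-Oct4GFP+ (primed) cells, where Esrp1 was not apart from that level, and between 5.03 and 9.13 TPM elsewhere. A relation of these factors to the ESRP and MBNL genes was not tested. Twist1, the factor of this list with the widest range, had 31.7 TPM in mES-Oct4GFP-, 23.8 TPM in R1 ESCs-primed and 14.0 TPM in 5C-Oct4GFP- cells, against 0.97 TPM in mES-Oct4GFP+ cells. In Oct4GFP+ against Oct4GFP- cells, 7 of the 11 factors were at least 2-fold lower and 0 higher in mES medium, where 28.8% and 17.9% of all genes were. In 5C medium 4 were lower and 2 higher of the 10 that reached 1 TPM, where 22.6% and 8.45% of all genes were. The list joins mesenchymal and epithelial factors, so its counts describe neither state alone. Of the 7 lower in mES medium, Zeb1, Zeb2, Snai2, Twist1 and Twist2 are mesenchymal and Grhl1 and Ovol1 epithelial. In 5C medium the 4 lower were Zeb1, Zeb2, Snai2 and Twist1, and the 2 higher Grhl2 and Ovol2.

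The genes with profiles most like each of the 8 were found as those with the smallest root mean square (RMS) difference of log2(TPM + 1) over the 7 libraries, each profile being centred on its own mean, among 13567 genes with at least 5 TPM in any library. For Esrp1 these were Myrf (RMS 0.37), the gene ENSMUSG00000103057 (0.47), for which no symbol was found, and the epithelial claudin Cldn7 (0.48). Myrf had 60.3 TPM in Oct4GFP+ cells of 5C medium and 0.37 TPM in those of mES medium. Esrp2 stood at position 10166 of that list (2.52). For Mbnl1 the nearest was Tgfbr2, a receptor for TGF-beta, at an RMS of 0.18, with TPM of 59.9 in 5C-Oct4GFP- cells and 2.02 in naive cells, followed by Camk1 (0.28) and Begain (0.29). For Mbnl2 they were Hbegf (0.35), Stap2 (0.37) and Bnip3 (0.37), and Mbnl1 stood at position 126 (0.69).

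For the genes of narrower range the nearest profiles were closer. Ptbp1 was most like Serbp1 (0.034), Usp39 (0.048) and Mre11a (0.067), with Celf1 at position 44 (0.10). Celf1 was most like Hnrnpm (0.050), Gspt1 (0.058) and Sumo2 (0.061), with Ptbp1 at position 34. Rbfox2 was most like Atg4a (0.098), Itpr1 (0.11) and Ccser2 (0.13), Ptbp2 most like Gprc5b (0.13), Ccnj (0.18) and Pdp1 (0.20), and Esrp2 most like Prss36 (0.19), Chmp4c (0.21) and Oxsm (0.22). A small RMS over 7 libraries that share their depth and scaling is a description, and flat profiles lie close to each other by their small range alone.

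Of 9 paralogues outside the 8 genes, 3 stayed under 5 TPM in all 7 libraries. Ptbp3, the third PTBP gene, was the highest of them, between 26.5 and 56.7 TPM in every library, which is in the range of Ptbp2. Celf5, Celf4 and Celf2 reached 18.9, 14.3 and 10.1 TPM. Mbnl3, the third muscleblind gene, had 18.5 TPM in mES-Oct4GFP- and 13.3 TPM in 5C-Oct4GFP- cells and between 2.36 and 5.21 TPM elsewhere, so that its highest libraries were those of Mbnl1 and Mbnl2. Celf3, a CELF gene of neurons, had 6.14 TPM in 5C-Oct4GFP- cells and 0 in 5C-Oct4GFP+ (naive) cells. Between Oct4GFP+ and Oct4GFP- cells, 3 of the 6 paralogues that reached 1 TPM were at least 2-fold lower and 1 higher in mES medium, where 28.8% and 17.9% of all genes were. In 5C medium 2 of 8 were lower and 1 higher, where 22.6% and 8.45% of all genes were.

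Among 26 other cell-type splicing regulators, 25 reached 1 TPM in the cells of mES medium, and 3 of these were at least 2-fold higher and 6 lower in Oct4GFP+ than in Oct4GFP- cells, where 17.9% and 28.8% of all genes were. Among Oct4GFP+ cells 5 of 25 were higher and 3 lower with 5C medium, where 13.7% and 13.5% of all genes were. Elavl4, a neuronal RNA-binding protein, had 27.2 TPM in 5C-Oct4GFP- cells and at most 1.75 TPM in the other libraries. Rbpms2, known from smooth muscle, had TPM of 338 in 5C-Oct4GFP+ cells, 392 in 5C-Oct4GFP+ (primed) cells and 362 in R1 ESCs-primed. Its TPM was 178 in mES-Oct4GFP+ cells, 152 in 5C-Oct4GFP+ (naive) cells, 44.8 in 5C-Oct4GFP- cells and 34.3 in mES-Oct4GFP- cells. Like Esrp1 it was higher in 5C-Oct4GFP+ and both primed libraries than in mES-Oct4GFP+ and naive cells, but unlike Esrp1 it was lowest in Oct4GFP- cells.

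General splicing factors had narrower ranges than Esrp1, Mbnl1 and Mbnl2. The median range on the log2(TPM + 1) scale was 0.98 for 13 SR proteins and Tra2 genes, 0.88 for 21 hnRNP genes and 1.00 for 36 core spliceosome genes, against 0.97 for Celf1 and 0.91 for Ptbp1. The mES-Oct4GFP- library, where Ptbp1 and Celf1 were lowest, was also the lowest for 9 of the 13, 15 of the 21 and 33 of the 36, where 16.0% of all genes that reached 1 TPM in any library were lowest in that library alone. In mES-Oct4GFP+ against mES-Oct4GFP- cells, 4, 3 and 5 of these genes were at least 2-fold higher and none lower, where 17.9% and 28.8% of all genes were. Srsf12 and Srsf1 varied most among the SR genes, with Srsf1 at 483 TPM in R1 ESCs-primed and 185 TPM in mES-Oct4GFP- cells and Srsf12 at 7.11 TPM in mES-Oct4GFP+ and 0.24 TPM in 5C-Oct4GFP+ cells. Hnrnpd and Hnrnpll were highest in R1 ESCs-primed, at 837 and 110.3 TPM, and lowest at 316 TPM in mES-Oct4GFP- and 44.0 TPM in naive cells. Cdc5l, a core factor of catalytic activation, had 277 TPM in the Oct4GFP+ and 71.3 TPM in the Oct4GFP- cells of mES medium, and Snrpg 617 TPM in R1 ESCs-primed and 226 TPM in mES-Oct4GFP- cells.

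Gene tables do not measure exon use, but the deposited gene length is the mean length of a gene's transcripts weighted by their estimated abundance, and it moves when transcripts of different length change their shares. Among 6333 genes with several transcripts and at least 50 counts in every library, the longest weighted length was a median of 1.14 times the shortest, and 7.28% reached 1.5 times. Mbnl1, with 25 transcripts in the tables, reached 1.56 times, from 2837 bases in R1 ESCs-primed to 4434 bases in 5C-Oct4GFP+ (naive) cells, the latter from 55 counts. Esrp2 reached 1.35 times, from 2357 bases in 5C-Oct4GFP+ (primed) to 3185 bases in mES-Oct4GFP- cells. Over the libraries with at least 50 counts, the other members stayed between 1.00 (Ptbp2, with 1 transcript) and 1.13 times (Celf1). For Esrp1 these were 5 libraries and for Mbnl2 6. The 7 and 16 counts of Esrp1 in mES-Oct4GFP+ and naive cells came with lengths of 2630 and 3762 bases, outside its range of 3364 to 3574 bases in the other libraries.

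Of 24 genes known to be spliced by these regulators, 14 had their highest level in mES-Oct4GFP- cells and 12 their lowest in 5C-Oct4GFP+ (naive) cells, the libraries highest and lowest in Mbnl2. Of all genes that reached 1 TPM in any library, 25.3% were highest in the first library alone and 23.5% lowest in the second alone. Cd44, whose variable exons are a classic ESRP target, had 314 TPM in the Oct4GFP- cells of mES medium and 67.0 TPM in those of 5C medium, against 0.36 TPM in mES-Oct4GFP+ cells. Foxp1, whose stem-cell exon is a known MBNL target, had TPM of 78.9 in 5C-Oct4GFP- cells and 0.73 in naive cells. At the 2-fold limit 13 of the 23 genes that reached 1 TPM were lower and 1 higher in the Oct4GFP+ than in the Oct4GFP- cells of mES medium, where 28.8% and 17.9% of all genes were, and 10 of 24 were lower and 0 higher after conversion to naive medium, where 17.5% and 10.0% were.

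Among the same genes, and over the libraries with at least 50 counts of each, the weighted length varied most for Numb, at 1.46 times over all 7 libraries, followed by Tead1 at 1.36, Dlg4 at 1.35 over 5 libraries and Macf1 at 1.33 times. Numb had 3255 bases in 5C-Oct4GFP-, 2992 in 5C-Oct4GFP+ (naive), 2762 in mES-Oct4GFP-, 2527 in R1 ESCs-primed, 2436 in 5C-Oct4GFP+ (primed), 2315 in 5C-Oct4GFP+ cells and 2229 in mES-Oct4GFP+ cells. With fewer counts the lengths spread further, as for Foxp1, at 948 bases from 3 counts in naive cells and 1439 bases from 22 counts in mES-Oct4GFP+ cells, against 3049 to 3467 bases in the other libraries. The order of Numb lengths was not identical to that of any of the 8 regulators. An identical order over 7 libraries is a very strict criterion, and a relation of these lengths to a regulator was not tested. Tead1 had 6834 bases in 5C-Oct4GFP+ (primed) and between 8105 and 9329 bases in the other libraries. Pkm, the pyruvate kinase gene whose exon choice PTBP1 is known to control, had 2 transcripts in the tables and the same weighted length of 2432 bases in all libraries, so that its exon choice cannot be read from the gene length.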

How the data were processed

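RNA from 7 groups of mouse cells was measured with 1 TruSeq library per group. The authors assigned reads with Bowtie and RSEM (versions not given in the sources used here) to mm10 transcripts. The deposited tables hold expected counts, which the authors left unnormalized, TPM and FPKM, which the authors calculated with RSEM, and gene lengths (bases).

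Groups came from the sample labels. TPM was compared as log2(TPM + 1), with a minimum of 1 TPM in either library. Expected counts, rounded to whole numbers, gave each ratio of TPM an exact Clopper-Pearson 95% interval for counting error only. No test between groups was made. Loci are those of GENCODE M21 on GRCm38 and promoter stretches those of RefSeq on GRCm38.p6. The 2-fold calls and the counting intervals, but not the other steps, were tested on simulated counts that held counting error only. Scripts ran in Python 3.11.15 with scipy 1.17.1 for the intervals, pandas 2.3.3 and numpy 2.4.6 for the tables, and matplotlib 3.10.9 for the plots.

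The members and lists were chosen with earlier results of these data known. Named were all 8 members, the 2 genes of widest range in each other list and genes a sentence turns on, the 3 most alike profiles per member, and the 4 spliced genes of most variable weighted length. Alternatives were a pseudocount of 0.1, no minimum, a minimum of 5 TPM, FPKM and median-ratio rescaling, and CPM (counts scaled to the library total), which was added after the data were seen.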

Additional observations from a re-analysis of the deposited data

Results flagged for a closer look

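Each of the 8 genes was compared in 2 settings of 3 contrasts. Of these pairs of differences, 10 ran in opposite directions with the counting intervals of both ratios clear of 1. The share of all genes that did so was not counted, so the number cannot be called unusual. The contrasts of medium and of reporter use the same libraries of mES and 5C medium, and Esrp1 and Ptbp2 are in both. In the contrast of converted cells both settings share the 5C-Oct4GFP+ library. In 3 more pairs the signs differed but 1 of the intervals included 1, namely Esrp2 for 5C against mES medium (0.19 in Oct4GFP+ and -0.81 in Oct4GFP- cells), Celf1 for Oct4GFP+ against Oct4GFP- cells (0.76 in mES and -0.051 in 5C medium) and Esrp2 for converted against 5C-Oct4GFP+ cells (0.14 in naive and -0.49 in primed medium). With 1 library per group the difference between the settings was not tested, and small values among these lie within what a change of scaling moves. All values are differences of log2(TPM + 1).

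For 5C against mES medium, Esrp1 differed by 5.62 in Oct4GFP+ cells and by -0.83 in Oct4GFP- cells, and Mbnl2 by 2.67 and -1.08. Rbfox2 differed by 0.32 in Oct4GFP+ and -0.36 in Oct4GFP- cells. Ptbp2 and Celf1 ran the other way, at -0.58 and -0.30 in Oct4GFP+ and 0.75 and 0.52 in Oct4GFP- cells.

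For Oct4GFP+ against Oct4GFP- cells, Esrp1 differed by -4.79 in mES medium and by 1.67 in 5C medium, and Esrp2 by -0.70 and 0.30. Ptbp2 differed by 0.23 in mES medium and -1.09 in 5C medium.

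For converted against 5C-Oct4GFP+ cells, Ptbp2 differed by -0.74 in naive and 1.29 in primed medium, and Ptbp1 by -0.19 and 0.18.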

How the results depend on the processing

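With 1 library per group no replicate could be left out. No paired analysis was possible because each group has 1 library. The number of members at least 2-fold apart was within 1.5 times under a pseudocount of 0.1, no minimum, a minimum of 5 TPM and median-ratio rescaling in all 9 comparisons, although it went from 3 to 2 for 5C-Oct4GFP+ against 5C-Oct4GFP- under median-ratio rescaling and with FPKM, as Ptbp2 missed the limit, and from 2 to 3 for 5C-Oct4GFP+ (naive) against mES-Oct4GFP+ with a pseudocount of 0.1 and with CPM, as Mbnl2 passed it. With FPKM it was 1 in place of 2 for 5C-Oct4GFP+ (naive) against mES-Oct4GFP+, and 0 in place of 1 for 5C-Oct4GFP+ (primed) against R1 ESCs-primed. With CPM, chosen after seeing the data, it was 2 in place of 1 for 5C-Oct4GFP- against mES-Oct4GFP-, and 0 for 5C-Oct4GFP+ (primed) against R1 ESCs-primed. Each recomputed value was set against the counting interval of the main TPM ratio. For a low gene the main difference on log2(TPM + 1) can itself lie outside this interval. Of 288 recomputed member differences 224 lay within the interval, 60 lay outside it in the same direction and 4 turned in direction. Of these 2 were Celf1 in 5C-Oct4GFP+ against 5C-Oct4GFP-, whose interval included a ratio of 1, at 0.10 under median-ratio rescaling and 0.044 with FPKM in place of -0.051. The other two were Rbfox2 in 5C-Oct4GFP+ against 5C-Oct4GFP- under median-ratio rescaling, at 0.00055 in place of -0.15, and Celf1 in 5C-Oct4GFP+ (primed) against 5C-Oct4GFP+ (naive) with CPM, at -0.013 in place of 0.21. The cause was not tested. Median-ratio rescaling moved the median difference of all genes from -0.25 to -0.11 in 5C-Oct4GFP+ against 5C-Oct4GFP-, from 0.14 to 0.016 in primed against naive, and from -0.16 to -0.042 in naive against mES-Oct4GFP+ cells. Depth limits Esrp1 most, with 7 reads in mES-Oct4GFP+ and 16 in 5C-Oct4GFP+ (naive) cells.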
